A study of Mus musculus with 16 samples.

Results

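The Gzma-high lung cells are the 581 CD8 T cells in which Gzma, the gene for granzyme A, took the largest share of a cell's counts, out of 2322 lung cells and 5727 cells in all. They were chosen by measured values: a cell was placed among them when its Gzma share reached the 75th percentile over lung cells, 1.80% of its counts. They were set against the 1161 Gzma-low lung cells, whose share lay below the lung median of 0.960%, and the 580 cells in between entered neither side. All cells were Pmel CD8 T cells, which carry a transgenic T cell receptor for the melanocyte and melanoma antigen gp100, and the series describes them as CD8+Thy1.1+. The mice were C57BL/6, were 16 weeks old, had melanoma-associated vitiligo and had undergone tumor surgery 45 days earlier. Single-cell RNA libraries were made from lung, liver, skin and draining lymph node, and lungs were minced, digested with Liberase and DNase and passed over a Percoll gradient. The 4 samples of a tissue differ in their titles only by an ending of the form used for flow cell lanes, so the lung is 1 library. The sources used here do not say how many mice it holds. Both sides therefore share 1 library, no test was made, and every interval below is a 95% interval. That of a ratio covers counting error only, and that of a share of cells covers the drawing of cells from this library. Neither covers differences between mice or libraries.

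Granzymes are serine proteases that cytotoxic T cells and natural killer cells store in granules and release, together with the pore-forming protein perforin, onto a target cell. Granzyme A is a tryptase, granzyme B cuts after aspartate and activates caspases, granzyme K is a tryptase like granzyme A, and granzyme M cuts after methionine or leucine. Memory CD8 T cells of the lung include cells that stay in the tissue, often marked by CD69 and CD103, and effector memory cells that pass through it. In mm10 coordinates, Gzma lies on the minus strand of chromosome 13 from position 113093825 to 113100981. Gzmk lies on the same strand of the same chromosome from 113171608 to 113225908, while Gzmb is on chromosome 14 from 56258838 to 56262260 and Gzmm on chromosome 10 from 79689020 to 79695261.

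Because Gzma chose the cells, its own values are given only as a description. The median share was 2.41% in Gzma-high cells (range 1.80% to 4.92%) and 0.240% in Gzma-low cells (range 0% to 0.960%), and the median Gzma count was 121 in Gzma-high and 6 in Gzma-low cells. No Gzma-high cell and 257 Gzma-low cells (22.1%) had no Gzma count. Shares ran without a gap through both thresholds, with 1.7971% and 1.79877% just inside the high side and 1.79684% and 1.79674% just outside it. At the median, 0.96% and 0.959046% were just inside the low side and 0.960566% and 0.961137% just outside.

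The sides differed in depth, which was no part of the rule but enters it as the denominator of the share. Gzma-high cells held a median of 4964 counts (interquartile range 3592 to 6343) and Gzma-low cells 2390 (1966 to 2943), a ratio of 2.08. Summed over cells the sides were alike, with 3004655 counts in Gzma-high and 3027810 in Gzma-low cells. Ranked by total counts into 10 groups, 179 of 232 cells of the deepest group (77.2%) were Gzma-high and 17 were Gzma-low, while the shallowest group held 6 Gzma-high and 208 Gzma-low cells. The Spearman correlation of Gzma share with total counts was 0.66 over 2322 lung cells, given as a description since both quantities come from the same cells. Median genes detected per cell were 1514 in Gzma-high and 994 in Gzma-low cells, but 789 and 822 after every cell was thinned to 1830 counts, which left out 6 Gzma-high and 207 Gzma-low cells. Mitochondrial genes took 1.79% of counts in Gzma-high and 1.93% in Gzma-low cells, and ribosomal protein genes 25.2% on either side. Scrublet called 2 doublets on each side. Lung cells shared 1 barcode with liver, 7 with skin and 7 with lymph node cells, of which 0, 1 and 1 were Gzma-high.

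**Figure D1:**
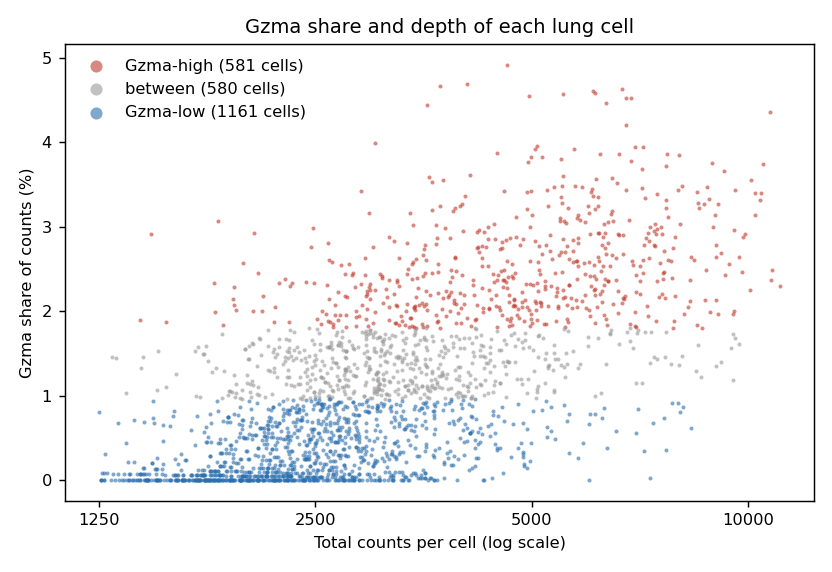
Each point is a lung cell, with total counts on a log axis and the Gzma share of counts in percent. Gzma-high cells lie at 1.80% or more and are deeper, with a median of 4964 counts, than Gzma-low cells, with a median of 2390.

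Since depth moved with the Gzma share, each comparison is also given at matched depth. For this the same 2 percentiles were taken within each of these 10 groups, called depth bins here. That gave 582 Gzma-high and 1160 Gzma-low cells with median depths of 2942.5 and 2943 counts. At matched depth the 2 names mean these sides, not the thresholds of 1.80% and 0.960%. Their Gzma shares overlapped, from 0.242% upward in Gzma-high and up to 2.46% in Gzma-low cells. A cell of a deep group can thus be Gzma-low here with a share above 1.80%. The contrast in Gzma itself was then smaller, at 25129.6 CPM in Gzma-high and 8325 CPM in Gzma-low cells, where the split over all lung cells gave 26316.5 and 3675 CPM (counts per 1000000, here with Gzma in the total). The smaller Gzma contrast and the matching of depth came together, and their parts in a smaller ratio cannot be told apart.

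Both sides were T cells by their defining markers. All 9 T cell markers were present, with a summed 18515 CPM in Gzma-high and 19359 CPM in Gzma-low cells. After thinning, Cd8b1 was counted in 99.5% of Gzma-high and 98.8% of Gzma-low cells, and Cd3e in 66.8% of Gzma-high and 68.4% of Gzma-low cells. Of 11 natural killer cell markers, 3 were in the table and summed to 184 CPM in Gzma-high and 126 CPM in Gzma-low cells. Of 13 myeloid markers, 12 were in the table at a summed 272 CPM in Gzma-high and 227 CPM in Gzma-low cells, with the macrophage genes Csf1r, Adgre1 and Marco at 0 counts in Gzma-high cells, where 3 counts would be 1.03 CPM. Of 8 B cell markers, 6 summed to 20.2 CPM in Gzma-high and 30.2 CPM in Gzma-low cells, with Ms4a1 and Ebf1 at 0 in Gzma-high cells. Of 12 gamma delta T cell markers 4 were in the table, at a summed 136 CPM in Gzma-high and 217 CPM in Gzma-low cells. Trdc, the gamma delta receptor constant gene, had 0 counts in Gzma-high cells and 52 counts in 18 Gzma-low cells; 0 of 581 cells allows up to 0.516% of cells with a count and sets no limit on cells that express the gene. Counts of genes that these cells should lack give the level of free RNA. After thinning, the macrophage and lung lysozyme gene Lyz2 was counted in 4.0% of Gzma-high and 6.18% of Gzma-low cells, the airway secretoglobin gene Scgb1a1 in 3.13% of Gzma-high and 1.15% of Gzma-low cells, and the immunoglobulin gene Igkc in 1.22% of Gzma-high and 2.52% of Gzma-low cells. A share of this size on 1 side is not read as expression below.

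Among 4254 genes with at least 20 CPM over lung cells, 172 (4.04%) were at least 1.5-fold higher in Gzma-high than in Gzma-low cells and 429 (10.1%) at least 1.5-fold lower. Here and below CPM was computed on each side with Gzma left out of the total, and counts over gene lists cover the members past the same minimum, which a gene can reach through the side where it is high. The median log2 ratio over all 4254 genes was -0.09, with 1734 genes above 0 and 2520 below it. Scaling by median-of-ratios size factors changed the split to 259 higher and 293 lower. Within depth bins 26 genes (0.611%) were at least 1.5-fold higher and 109 (2.56%) at least 1.5-fold lower. Of the 172 genes, 146 (84.9%) stayed higher within depth bins, against 42.8% of all genes above 0 there, and 15 were still past 1.5-fold. Of the 429 genes, 398 (92.8%) stayed lower, against 57.2% of all genes below 0, and 68 were still past 1.5-fold. The cells of these 2 comparisons overlap, so this is a description of how far the sizes shrank and not a second sample.

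The other granzymes were higher in Gzma-high cells. Of 10 granzyme genes listed, 4 were in the table, and the 3 beside Gzma all had at least 20 CPM. Gzmk stood at 574 CPM in Gzma-high and 183 CPM in Gzma-low cells, 3.14-fold higher (2.85 to 3.47). Its level climbed over 4 equal groups of cells ranked by Gzma share, at 70.4, 268, 416 and 574 CPM from the lowest to the highest. After thinning Gzmk was counted in 60% of Gzma-high cells (55.9% to 64%, Clopper-Pearson) and 24.7% of Gzma-low cells (22% to 27.6%). At matched depth Gzmk stood at 588 CPM in Gzma-high and 259 CPM in Gzma-low cells, 2.27-fold higher (2.09 to 2.47). Gzmm was the scarcer gene with the larger ratio, 81.7 CPM in Gzma-high against 10.3 CPM in Gzma-low cells, 7.95-fold (5.45 to 12), which shrank to 1.9-fold (1.44 to 2.51) at matched depth. Its thinned shares were 10.6% of Gzma-high and 2.2% of Gzma-low cells, the second within the range of the free-RNA genes. Gzmb, the most abundant of the 3, stood at 1495 CPM in Gzma-high and 836 CPM in Gzma-low cells, 1.79-fold higher (1.7 to 1.88) and 1.43-fold (1.36 to 1.5) at matched depth. The log2 ratios of the 3 genes had a median of 1.65, and 0.93 at matched depth, against -0.09 and -0.04 over all genes.

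The granule machinery around the granzymes did not differ by a common factor. Of 17 genes for granule proteins and their handling, 11 were higher (40.8% over all genes) and 6 lower in Gzma-high cells. Their median log2 ratio was 0.22, and 3 were past 1.5-fold (4.04% over all genes). Those 3 were the serpin gene Serpinb6b (68 CPM in Gzma-high, 20.9 CPM in Gzma-low cells, 3.26-fold), Unc13d, which primes granules for fusion (1.67-fold), and the serpin gene Serpinb6a (1.56-fold). At matched depth none of the 17 passed 1.5-fold, and the 3 stood at 1.2-, 1.21- and 1.13-fold. The abundant granule genes were near equality: Nkg7 had 4905 CPM in Gzma-high and 4791 CPM in Gzma-low cells, and the cathepsin W gene Ctsw 772 CPM in Gzma-high and 750.5 CPM in Gzma-low cells. Perforin itself was too sparse to place, with 38 Prf1 counts in Gzma-high and 51 counts in Gzma-low cells. Srgn, the proteoglycan that packs granzymes, was at 933 CPM in Gzma-high and 1125 CPM in Gzma-low cells, a ratio of 0.829 that came to 0.982 at matched depth.

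**Figure D2:**
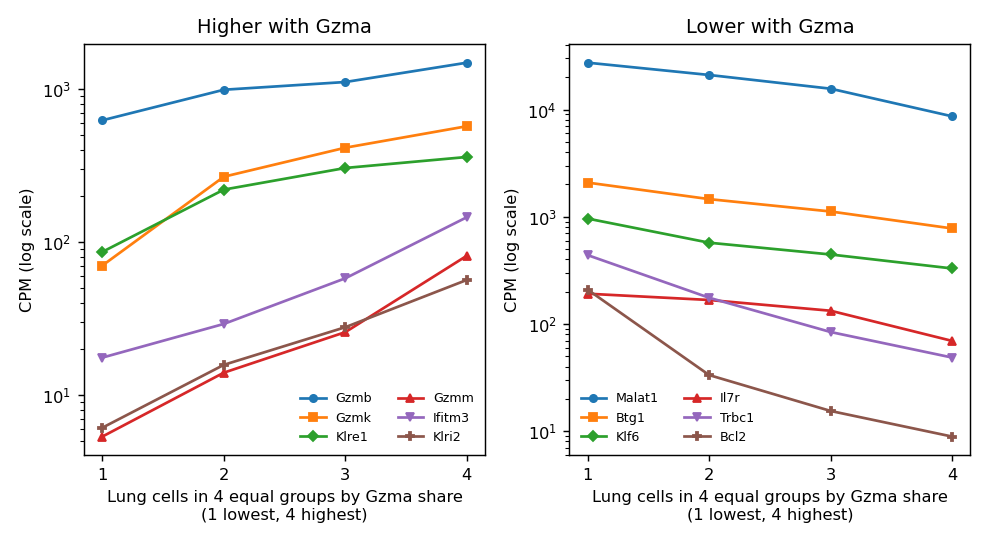
Pooled CPM on a log axis over 4 equal groups of lung cells by Gzma share, lowest to highest, each point being the pooled level of 1 group. Gzmk climbs to 574 CPM in the highest group, against 70.4 CPM in the lowest, while Bcl2 lies at 8.89 CPM in the highest and 209 CPM in the lowest.

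Killer lectin-like receptors are surface receptors shared with natural killer cells that tune cytotoxic activity, and they did not move as 1 block. Klre1, which pairs with Klri1 or Klri2, had 361 CPM in Gzma-high and 163 CPM in Gzma-low cells, 2.22-fold higher (1.99 to 2.48). Its ratio was nearly the same at matched depth, 2.09-fold (1.89 to 2.31), and its thinned shares were 44% of Gzma-high and 22.3% of Gzma-low cells. Its partner gene Klri2 had 56.7 CPM in Gzma-high and 11.6 CPM in Gzma-low cells, 4.89-fold (3.38 to 7.26) and 2.09-fold (1.53 to 2.84) at matched depth. Both members of this receptor pair were thus past 1.5-fold with and without the matching. Klrd1, which encodes CD94, was 1.59-fold higher (1569 CPM in Gzma-high, 989 CPM in Gzma-low cells) and 1.25-fold at matched depth. The partners of CD94 and the activating receptor NKG2D were near equality, with ratios of 0.965 for Klrc1, 0.905 for Klrc2 and 1.07 for Klrk1. Over the 10 receptors measured, 6 were higher (40.8% over all genes) and 3 past 1.5-fold (4.04%). At matched depth 8 were higher (42.8% over all genes) and 2 past 1.5-fold (0.611%). Klrg1, a marker of terminal effectors, was too sparse for this count, with 92 counts in Gzma-high and 7 in Gzma-low cells. Its thinned share of 4% of Gzma-high cells (2.55% to 5.94%) lay in the range of the free-RNA genes. That of 0.524% of Gzma-low cells (0.17% to 1.22%) lay below their range, and the difference was not tested.

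Several genes outside these families had large ratios by the rule that named the 12 genes in each direction farthest from equality. Ifitm3, an interferon-inducible membrane protein that blocks virus entry, had 146 CPM in Gzma-high and 24.2 CPM in Gzma-low cells, 6.03-fold (4.7 to 7.84). At matched depth it had the largest ratio of the 4254 genes, 2.65-fold (2.17 to 3.24), and its thinned shares were 15% of Gzma-high and 2.94% of Gzma-low cells. Of 26 other interferon-stimulated genes in lung, 8 were higher and 18 lower in Gzma-high cells, near the 2520 of 4254 lower over all genes. None was at least 1.5-fold higher and 4 were at least 1.5-fold lower (10.1% over all genes). In liver, given below, most interferon-stimulated genes measured were higher. Tspan32, a tetraspanin of blood cells, had 186 CPM in Gzma-high and 42.8 CPM in Gzma-low cells, 4.35-fold higher and 1.58-fold (1.35 to 1.84) at matched depth. The metallothionein genes, which bind zinc and copper, were higher over all cells, with smaller ratios at matched depth. Mt2 was 4.46-fold higher (90.2 CPM in Gzma-high, 20.2 CPM in Gzma-low cells) and 1.27-fold (1.02 to 1.59) at matched depth, and Mt1 was 2.86-fold higher (243 CPM in Gzma-high, 84.9 CPM in Gzma-low cells) and 0.96-fold (0.836 to 1.1). Cdkn2a, which encodes the cell cycle inhibitors p16 and p19, was 3.74-fold higher (57.1 CPM in Gzma-high, 15.2 CPM in Gzma-low cells) and 1.42-fold (1.02 to 1.98) at matched depth.

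Genes of terminal effector cells were mostly somewhat higher in Gzma-high cells: 14 of 19 (40.8% over all genes), with a median log2 ratio of 0.21. At matched depth 17 of 19 were higher (42.8% over all genes), with a median of 0.17. They include Gzmb, given above, and share members with lists given below. S100a4, S100a6, Lgals1 and Lgals3 are also in the S100, galectin and annexin list. Ly6c2, Itgb1, Itgal and Itgb2 are also in the recirculation and egress list. Tbx21, the transcription factor T-bet, had 58.4 CPM in Gzma-high and 39.1 CPM in Gzma-low cells, 1.49-fold higher and 1.31-fold at matched depth. Itgax, the CD11c integrin chain, was 1.6-fold higher and 1.38-fold at matched depth. Ly6c2 had 1859 CPM in Gzma-high and 1242 CPM in Gzma-low cells, a ratio of 1.5 and of 1.27 at matched depth; it is uncertain because its close copy Ly6c1 can share reads with it. Cx3cr1, the fractalkine receptor of circulating effector cells, differed from them in that its ratio was larger at matched depth: 1.13 over all cells (64.3 CPM in Gzma-high, 57 CPM in Gzma-low cells) and 1.57 (1.27 to 1.93) at matched depth. The 3 chemokine genes measured did the same. Ccl3 had a ratio of 1.32 over all cells and 1.7 (1.41 to 2.04) at matched depth, Ccl4 with 0.603 and 1.13, and Ccl5, at 38355 CPM in Gzma-high and 42224 CPM in Gzma-low cells the most abundant chemokine gene here, with 0.908 and 1.2. Effector cytokines and death ligands were not higher. All 6 measured were lower (2520 of 4254 over all genes), 2 past 1.5-fold (10.1%), and 5 of 6 at matched depth (57.2%). Ifng, the interferon gamma gene, had 379 CPM in Gzma-high and 404 CPM in Gzma-low cells. Tnf had 29.1 CPM in Gzma-high and 42.1 CPM in Gzma-low cells, a ratio of 0.69 that was 0.652 at matched depth. Its thinned shares, 3.83% of Gzma-high and 5.87% of Gzma-low cells, were below those of the free-RNA gene Lyz2. Lyz2 itself had ratios of 0.593 and 0.534, so Tnf is not read as a difference in expression.

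Cell cycle genes had 3 of the 4 largest ratios over all cells among the 4254 genes with at least 20 CPM. They mostly lost them within depth bins, but not when cells were thinned to equal depth. Of 22 proliferation genes measured, 21 were higher in Gzma-high cells (40.8% over all genes) and 15 past 1.5-fold (4.04%), with a median log2 ratio of 0.71. Ube2c, which feeds the anaphase-promoting complex, had 99.5 CPM in Gzma-high and 9.61 CPM in Gzma-low cells, 10.3-fold (7.05 to 15.7). Ccnb2, cyclin B2, was 9.24-fold higher (70.4 CPM in Gzma-high, 7.62 CPM in Gzma-low cells). The kinase-binding gene Cks1b was 6.93-fold, the survivin gene Birc5 5.97-fold and the microtubule regulator Stmn1 3.15-fold higher. Cells with at least 2 counts over 8 cell cycle markers made up 115 of 581 Gzma-high cells (19.8%, 16.6% to 23.3%) and 18 of 1161 Gzma-low cells (1.55%, 0.921% to 2.44%). After thinning to equal depth they made up 8.87% (6.68% to 11.5%) of Gzma-high and 1.05% (0.504% to 1.92%) of Gzma-low cells. Within depth bins the shares were 8.93% of Gzma-high and 6.29% of Gzma-low cells. There 8 of the 22 genes were higher (42.8% over all genes) and 14 lower, and the median log2 ratio was -0.19. Ube2c then stood at a ratio of 0.878, Birc5 at 0.813, Stmn1 at 0.916, Cks1b at 1.35 and Ccnb2 at 1.52. With cells thinned to equal depth and split anew, the ratios were 10.6 for Ube2c, 3.99 for Birc5, 2.8 for Stmn1, 5.78 for Cks1b and 6.99 for Ccnb2. Thinned Gzma counts still ran with the original depth, at a Spearman correlation of 0.61. Among cells of at least the median depth the ratios were 2.64, 2.13, 2.06, 3.35 and 3.88 in the same order. Cycling and depth went together in these cells, and their parts in the comparison cannot be told apart.

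With the cycling cells left out, 148 genes (3.48%) were at least 1.5-fold higher and 430 (10.1%) at least 1.5-fold lower in Gzma-high cells. Gzmk was then 3.11-fold, Gzmm 7.06-fold, Klre1 2.3-fold and Ifitm3 5.91-fold higher. Ube2c, with 21.5 CPM in Gzma-high and 3.41 CPM in Gzma-low cells, still had a ratio of 6.3, though it is 1 of the 8 markers by which cells were left out.

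Genes of the S100, galectin and annexin families and of the cytoskeleton, which mark effector and memory cells against naive ones, were higher by small factors. In Gzma-high cells 25 of 28 were higher (40.8% over all genes), with a median log2 ratio of 0.34 and 3 past 1.5-fold (4.04%). Those 3 were the annexin A2 gene Anxa2 (683 CPM in Gzma-high, 335 CPM in Gzma-low cells, 2.04-fold), the vimentin gene Vim (1.7-fold) and the galectin-1 gene Lgals1 (1.64-fold). Lgals1 stood at 14490.4 CPM in Gzma-high and 8853 CPM in Gzma-low cells. At matched depth Anxa2 and Vim stood at 1.04- and 1.02-fold and Lgals1 at 1.22-fold (1.2 to 1.24), and the median of the 28 was 0.06.

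**Figure D3:**
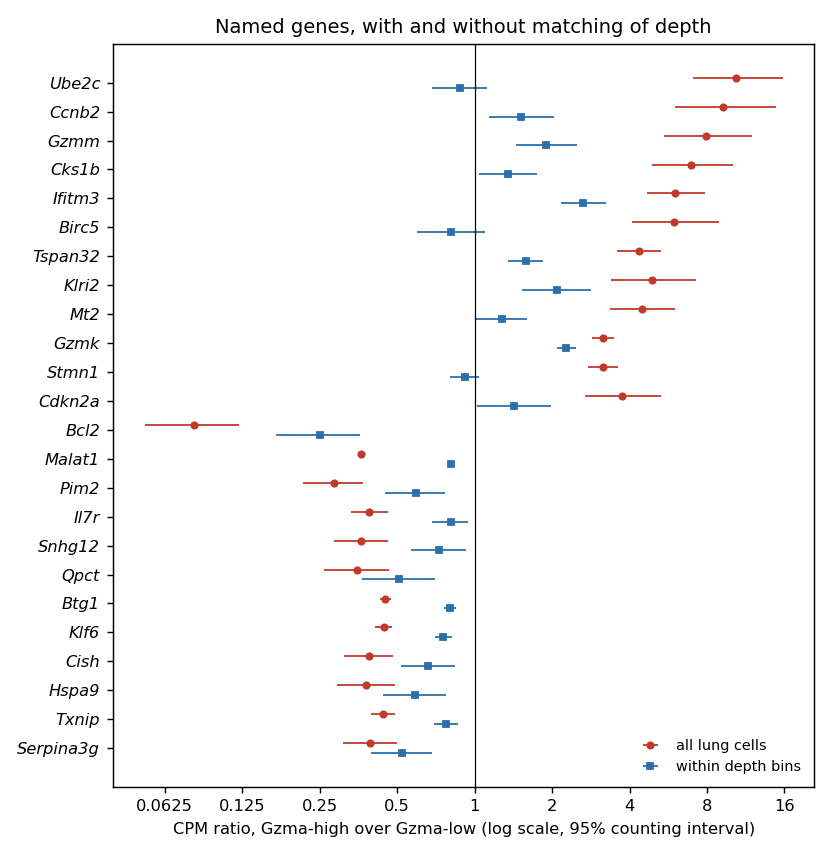
Ratio of CPM in Gzma-high over Gzma-low lung cells on a log axis for the 12 named genes in each direction, with 95% counting intervals, over all cells (circles) and within depth bins (squares). Gzmk stays at 2.27-fold and Ifitm3 at 2.65-fold at matched depth, while Ube2c, Birc5 and Stmn1 cross to ratios below 1.

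Among the 4254 genes with at least 20 CPM, the gene with the lowest ratio was Bcl2, the anti-apoptotic gene on which memory T cells depend for survival. It had 8.89 CPM in Gzma-high and 109 CPM in Gzma-low cells, 12.3-fold lower (8.25 to 19.1). Its thinned shares were 1.57% of Gzma-high and 9.33% of Gzma-low cells, the first at the free-RNA level. At matched depth it was 4.0-fold lower (17 CPM in Gzma-high, 68.1 CPM in Gzma-low cells). Bcl2 also led a cluster of shallow cells, cluster 4, described below. Without that cluster the ratio was 0.294, and within the cluster that held most Gzma-high cells it was 2.18 (0.322 to 93.1), on the other side of equality with an interval that includes 1.

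Other genes of long-lived and precursor T cells were mostly lower too, 7 of 9 including Bcl2 (2520 of 4254 over all genes). At least 1.5-fold lower were 4 of the 9 (10.1% over all genes). The other 2 genes were higher, 1 of them at least 1.5-fold (4.04% over all genes). The median log2 ratio of the 9 was -0.49 (-0.22 at matched depth, but 0.00085 within cluster 0). Icos, Tcf7, Pim2 and Cish, given below, are not among these 9. Il7r, the receptor for the survival cytokine IL-7, had 69.4 CPM in Gzma-high and 178 CPM in Gzma-low cells, 2.56-fold lower, and thinned shares of 12% of Gzma-high and 26.9% of Gzma-low cells. At matched depth its ratio was 0.807 (0.686 to 0.946). Cd28, the main costimulatory receptor, kept its difference, with a ratio of 0.661 over all cells (127 CPM in Gzma-high, 192 CPM in Gzma-low cells) and 0.618 at matched depth. Icos, its relative, had 33.2 CPM in Gzma-high and 66 CPM in Gzma-low cells, a ratio of 0.503 and of 0.644 at matched depth. Tcf7, the transcription factor of stem-like memory cells, was sparse on both sides, with 3 counts in Gzma-high and 45 in Gzma-low cells. The kinase gene Pim2, which acts downstream of cytokine receptors, was 3.52-fold lower (24.3 CPM in Gzma-high, 85.5 CPM in Gzma-low cells) and 1.69-fold at matched depth. Cish, an inhibitor of cytokine signaling, was 2.57-fold lower and 1.51-fold at matched depth. Within depth bins and without cluster 4 neither was past 1.5-fold, with ratios of 0.88 for Pim2 and 0.953 for Cish.

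Malat1, a nuclear noncoding RNA, was the most abundant of the 12 genes named as lower, at 8644 CPM in Gzma-high and 23776 CPM in Gzma-low cells, 2.75-fold lower. Over thinned cells the Spearman correlation of Malat1 was -0.52 with the Gzma count and -0.65 with the original depth, and at matched depth its ratio was 0.808. Btg1, an antiproliferative gene, was 2.23-fold lower (777 CPM in Gzma-high, 1729.7 CPM in Gzma-low cells) and Txnip, the thioredoxin inhibitor, 2.26-fold, with ratios of 0.803 and 0.777 at matched depth. The noncoding gene Snhg12 was 2.75-fold and the mitochondrial chaperone gene Hspa9 2.63-fold lower, with matched-depth ratios of 0.728 and 0.587. Qpct, glutaminyl cyclase, was 2.86-fold lower (22.2 CPM in Gzma-high, 63.6 CPM in Gzma-low cells) and 1.96-fold at matched depth. Serpina3g, a serpin that inhibits cathepsin proteases, was 2.55-fold lower and 1.91-fold at matched depth.

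Immediate early genes, which switch on within minutes of stimulation, were lower in Gzma-high cells without exception among the 23 measured. Their median log2 ratio was -0.74, and 15 were at least 1.5-fold lower. Over all 4254 genes 2520 were lower and 10.1% at least 1.5-fold lower. Jun had 16.1 CPM in Gzma-high and 57 CPM in Gzma-low cells, 3.55-fold lower (2.56 to 5.01). Its thinned shares were 2.96% of Gzma-high and 6.71% of Gzma-low cells, where the free-RNA gene Lyz2 had 4.0% and 6.18%. The level of Jun is therefore uncertain. Fos had 66.7 CPM in Gzma-high and 153 CPM in Gzma-low cells, 2.29-fold lower. Klf6, a zinc-finger gene of this list, was 2.25-fold lower (329 CPM in Gzma-high, 741 CPM in Gzma-low cells). At matched depth 20 of 23 immediate early genes were lower (57.2% over all genes), 6 past 1.5-fold (2.56%), with a median of -0.22. Jun then stood at a ratio of 0.363, Fos at 0.635 and Klf6 at 0.757. Of 13 heat shock and chaperone genes 11 were lower (2520 of 4254 over all genes), with a median of -0.34. The Hsp90 gene Hsp90aa1 had 319 CPM in Gzma-high and 673 CPM in Gzma-low cells, a ratio of 0.473, and 0.745 at matched depth. Hspa1a had the lowest ratio, 0.107 (24.3 CPM in Gzma-high, 226 CPM in Gzma-low cells), but its reads can be shared with the near-identical Hspa1b and its level is uncertain.

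Genes of tissue residency were lower in Gzma-high cells, 18 of 20 (2520 of 4254 over all genes), with a median log2 ratio of -0.67. At matched depth 16 of 20 were lower (57.2% over all genes), with a median of -0.38. The list shares stress and early response genes with the lists above, among them Cish, Nr4a1, Tnfaip3 and Hspa1a, and its defining members were closer to equality. Itgae, the CD103 chain that binds E-cadherin on epithelium, had 174 CPM in Gzma-high and 195 CPM in Gzma-low cells, with thinned shares of 27% of Gzma-high and 27.9% of Gzma-low cells, and a ratio of 1.16 at matched depth. Cd69, which holds cells in tissue by blocking the egress receptor S1PR1, had 102 CPM in Gzma-high and 151 CPM in Gzma-low cells, a ratio of 0.672 and of 0.832 at matched depth. Cxcr6, a chemokine receptor of lung memory cells, had 934 CPM in Gzma-high and 1175 CPM in Gzma-low cells, a ratio of 0.795 that became 1.04. The members that stayed past 1.5-fold lower at matched depth included the phosphatase gene Inpp4b, with a ratio of 0.379 and then 0.421, the exonuclease gene Isg20, with 0.344 and 0.372, and Qpct. Genes of recirculation and egress were higher in 9 of 13 (40.8% over all genes) and in 11 of 13 at matched depth (42.8%). Their medians were 0.18 and 0.17 (-0.06 without cluster 4 and -0.05 among cells of at least the median depth). Klf2, which drives S1pr1 and lymph node homing, had 854 CPM in Gzma-high and 1385 CPM in Gzma-low cells, a ratio of 0.616, and 1.05 at matched depth. S1pr1 had 90.6 CPM in Gzma-high and 107 CPM in Gzma-low cells, a ratio of 0.843, and 1.12 at matched depth.

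Inhibitory receptors were sparse. Havcr2, which encodes TIM-3, had 48.9 CPM in Gzma-high and 24.2 CPM in Gzma-low cells, 2.02-fold higher, and was at 1.0-fold at matched depth. Pdcd1, which encodes PD-1, had 25.3 CPM in Gzma-high and 18.2 CPM in Gzma-low cells (0.966 to 2.0 for the ratio). Its thinned shares of 3.48% of Gzma-high and 2.2% of Gzma-low cells lay within the range of the free-RNA genes.

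Within the T cell receptor complex 1 gene stood apart, and it was singled out after its values were seen. Of 22 genes of the receptor, its signaling and CD8, 20 lay within 1.5-fold of equality and 17 were below it (2520 of 4254 over all genes). The median log2 ratio of the 22 was -0.13, and -0.02 at matched depth. Trbc2, one of the 2 constant genes of the beta chain, had 10229 CPM in Gzma-high and 10090.2 CPM in Gzma-low cells. Trbc1, the other constant gene, had 48.5 CPM in Gzma-high and 289 CPM in Gzma-low cells, 5.96-fold lower (4.99 to 7.17). It was counted in 67 of 581 Gzma-high and 386 of 1161 Gzma-low cells, and after thinning in 5.91% of Gzma-high and 27.3% of Gzma-low cells. At matched depth it was 4.16-fold lower, within the 2 largest clusters its ratios were 0.131 and 0.246, and in liver cells split by the same rule 0.17, or 0.19 at matched depth. The 2 genes are nearly identical, and the sources used here do not say how the counting divided reads between them, so the level of Trbc1 is uncertain. The signaling adaptor Sh2d1a was the other gene past 1.5-fold, 2.14-fold higher (117 CPM in Gzma-high, 54.7 CPM in Gzma-low cells) and 1.11-fold at matched depth.

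**Figure D4:**
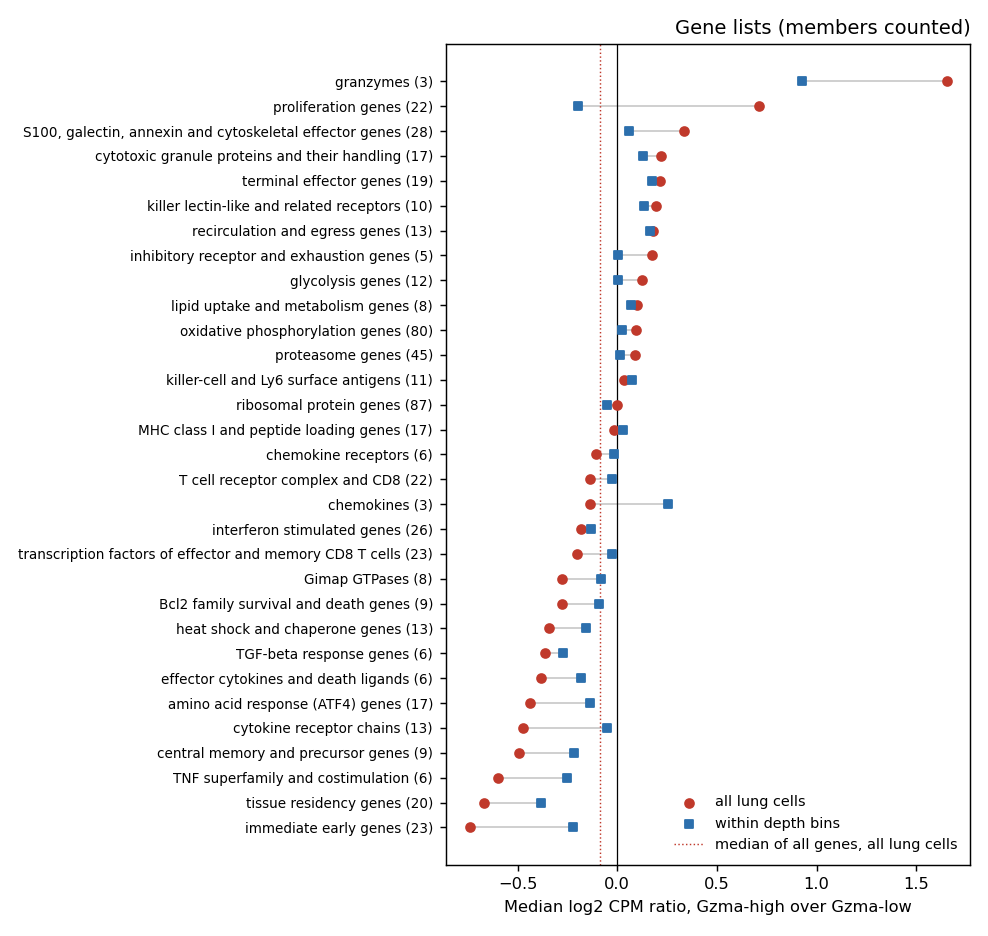
Median log2 ratio of CPM in Gzma-high over Gzma-low lung cells for gene lists with at least 3 measured members, over all cells (circles) and within depth bins (squares), with the number of members in brackets and the median of all genes, -0.09, as a dotted line. Granzymes have the highest median of these lists over all cells (1.65) and at matched depth (0.93), the lowest belongs to immediate early genes over all cells (-0.74) and to tissue residency genes at matched depth (-0.38), and proliferation genes cross 0.

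Metabolic and antigen presentation genes had medians of small size, above the -0.09 of all genes. Higher in Gzma-high cells were 10 of 12 glycolysis, 51 of 80 oxidative phosphorylation and 29 of 45 proteasome genes (40.8% over all genes). Of 17 genes of MHC class I and peptide loading 8 were higher. At matched depth these counts were 6, 44, 25 and 11 (42.8% over all genes). The median log2 ratio was 0.13 for 12 glycolysis genes, 0.09 for 80 oxidative phosphorylation genes, 0.09 for 45 proteasome genes and -0.02 for 17 genes of MHC class I and peptide loading. Gapdh, the glycolysis enzyme, was the glycolysis gene past 1.5-fold, with 1128 CPM in Gzma-high and 618 CPM in Gzma-low cells, 1.82-fold higher and 1.15-fold at matched depth. Of 13 cytokine receptor chains 10 were lower (2520 of 4254 over all genes), with a median of -0.47 that became -0.05 at matched depth. Of 17 genes of the amino acid response 10 were lower, much the share of all genes (2520 of 4254). At least 1.5-fold lower were 6 of the 17 (10.1% over all genes), and 1 at matched depth (2.56%). Their median was -0.44, and -0.14 at matched depth (0.10 without cluster 4).

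The genes whose counts ran most alike with Gzma were ranked over 2090 lung cells thinned to 1830 counts, among 1799 genes. Lgals1 was first with a Spearman correlation of 0.51, then Gzmk with 0.38, Pycard, the inflammasome adaptor, with 0.35, and S100a10 with 0.32. Vim (0.29), the actin gene Actg1 (0.27), Gzmb (0.26), Cd52 (0.26), the galectin-3 gene Lgals3 (0.25) and Klre1 (0.24) completed the 10. Most of them also ran with the original depth of the cell, at 0.56 for Lgals1, 0.47 for Vim and 0.37 for Pycard. Klre1 did so least, at 0.04, followed by Gzmb at 0.20 and Gzmk at 0.23. These correlations are descriptions over cells of 1 library.

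Clustering without Gzma spread the Gzma-high cells unevenly over 5 clusters, which are given by number. Cluster 0, led by Ifitm3, Klri2 and Mt2, held 302 Gzma-high and 68 Gzma-low cells of 486, at a median of 5013.5 counts. Cluster 1, the largest with 1310 cells, held 182 Gzma-high and 725 Gzma-low cells, and its leading genes included Ccr10 and Il7r. Cluster 2, led by cell cycle genes, held 84 Gzma-high and 8 Gzma-low cells of 110, and cluster 3, led by the interferon-stimulated genes Ifit1 and Ifit3, held 12 Gzma-high and 33 Gzma-low cells of 73. Cluster 4, led by Bcl2, Slc7a5 and Hspa1a, held 1 Gzma-high and 327 Gzma-low cells of 343 at the lowest median depth, 1906 counts. It made up 28.2% of the Gzma-low cells. Within cluster 0 and within cluster 1, Gzmk was 2.45- and 2.39-fold, Gzmm 3.34- and 4.0-fold, Klre1 2.27- and 2.21-fold and Gzmb 1.64- and 1.53-fold higher in Gzma-high cells, the same direction inside both. Within depth bins and without cluster 4, some other genes named above as past 1.5-fold at matched depth were no longer so. Among the lower ones these were Qpct (0.725), Hspa9 (0.705), Fos (0.737), Icos (0.736) and Tnf (0.721), and among the higher ones Tspan32 (1.38), Cx3cr1 (1.45) and Ccnb2 (1.31). The median log2 ratio there was -0.15 for tissue residency genes and -0.11 for immediate early genes, while Bcl2 stood at 0.587 and Jun at 0.466.

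Liver cells, a separate library that the choice of lung cells did not use, were split by the same rule with their own percentiles into 139 Gzma-high and 278 Gzma-low cells, with median depths of 4254 and 2702 counts. In skin and lymph node the median Gzma share was 0, no cell lay below it, and the rule could not be applied. Among 4144 genes with at least 20 CPM in liver, 346 (8.35%) were at least 1.5-fold higher and 510 (12.3%) at least 1.5-fold lower in Gzma-high cells. At matched depth the figures were 234 (5.65%) and 411 (9.92%), with fewer cells and wider intervals than in lung. Of the 172 genes higher in lung, 157 were measured in liver, 144 (91.7%) were higher there and 85 (54.1%) past 1.5-fold, against 47.2% of all genes above 0. Of the 429 genes lower in lung, 390 were measured in liver and 334 (85.6%) were lower there, 163 of them past 1.5-fold, against 52.8% of all genes below 0. Depth differed between the sides in both tissues, and at matched depth in liver 107 (68.2%) of the 157 were higher, against 45.9% of all genes, and 257 (65.9%) of the 390 lower, against 54.1% of all genes.

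Gzmk was 3.86-fold higher in liver (552 CPM in Gzma-high, 143 CPM in Gzma-low liver cells) and 2.29-fold (1.9 to 2.78) at matched depth, where it was 2.27-fold in lung. Ifitm3 was 6.15-fold and at matched depth 2.16-fold (1.48 to 3.15) higher in liver, Klre1 2.33-fold and 1.82-fold, and Tspan32 7.07-fold and 2.1-fold. Gzmm rested on 28 counts in Gzma-high and 7 in Gzma-low liver cells, 4.99-fold (2.13 to 13.5), and at matched depth it was 1.64-fold (0.724 to 3.63) there, with an interval that includes 1. Klri2 was 3.74-fold higher in liver and 1.69-fold (0.901 to 3.15) at matched depth, again with an interval that includes 1. Gzmb was nearer to equality in liver, 1.16-fold (1.07 to 1.25) and 1.14-fold at matched depth, than in lung, at 1.79- and 1.43-fold; whether the tissues differ was not tested. The proliferation genes crossed equality in liver as well, with a median log2 ratio of 1.15 over all liver cells and -1.15 at matched depth. Bcl2 had 5 counts in Gzma-high and 27 in Gzma-low liver cells, a ratio of 0.231 over all cells and of 1.05 (0.492 to 2.13) at matched depth.

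Some gene groups took another direction or size in liver than in lung, and these differences were not tested. Of 25 interferon-stimulated genes measured in liver 19 were higher in Gzma-high liver cells (47.2% over all genes), with a median log2 ratio of 0.25 and 6 past 1.5-fold (8.35%). At matched depth 19 were higher there as well (45.9% over all genes), with a median of 0.51 and 11 past 1.5-fold (5.65%). The lung medians were -0.18 and -0.13. Ccl3 had 27 counts in Gzma-high and 73 in Gzma-low liver cells, a ratio of 0.461 (0.285 to 0.726) and of 0.522 (0.307 to 0.852) at matched depth, below equality where lung was above it. The 5 chemokine genes measured in liver had a median of -0.68, with 3 past 1.5-fold lower (12.3% over all genes), and of 0.12 at matched depth. The metallothionein genes were higher in liver with and without the matching. Mt2 had 62 counts in Gzma-high and 8 in Gzma-low liver cells, 9.66-fold, and was 3.1-fold (1.81 to 5.43) higher at matched depth, and Mt1 was 3.77-fold and 2.33-fold (1.72 to 3.15). Of 16 genes of the amino acid response in liver 10 were higher (47.2% over all genes), with a median of 0.32 and of 0.11 at matched depth. Both lung medians were below 0, but without cluster 4 the lung median was 0.10, and 0.04 within depth bins.

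**Figure D5:**
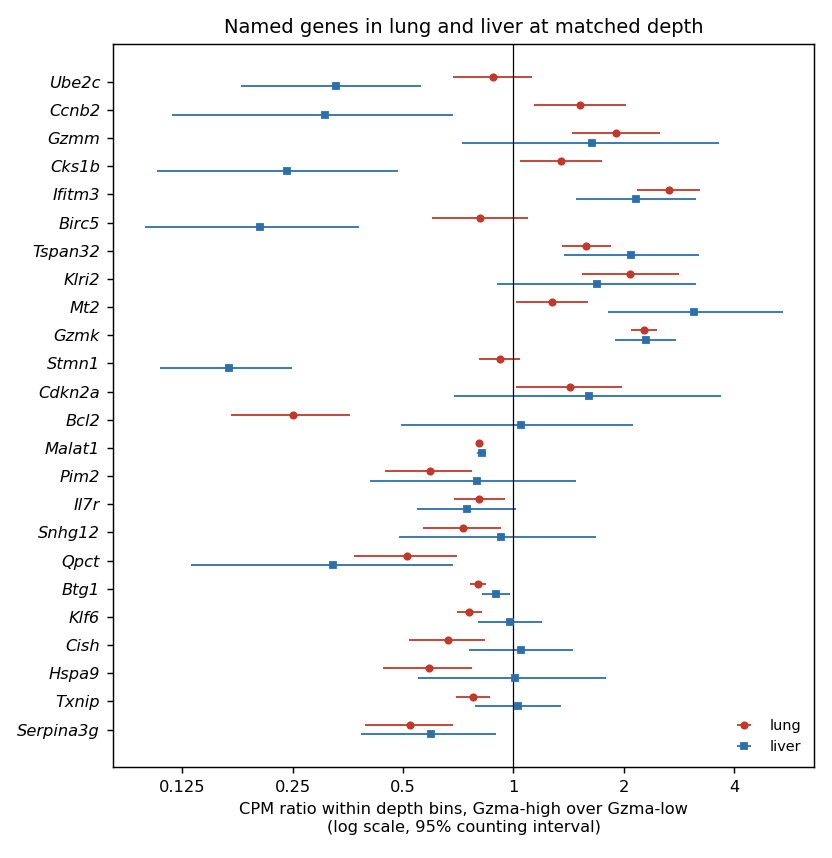
Ratio of CPM in Gzma-high over Gzma-low cells within depth bins on a log axis, with 95% counting intervals, for the named genes in lung (circles) and liver (squares). Gzmk lies at 2.27-fold in lung and 2.29-fold in liver, while Bcl2 lies at 0.25 in lung and 1.05 in liver and Ube2c, Ccnb2, Cks1b, Birc5 and Stmn1 lie lower in liver.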

How the data were processed

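Single-cell RNA libraries of CD8 T cells from 4 tissues were measured as 16 samples, 4 per tissue, taken as 1 library per tissue. The counts deposited by the authors are whole numbers for 9223 genes in 5727 cells, and each column name gives the tissue. Per the submitters' processing notes, the tools were Bowtie and RSEM and the build mm10. The sources used here do not give versions, strandedness, the authors' filters, or whether counts are of unique molecular identifiers. Intervals of ratios cover counting error only, and those of shares the drawing of cells from 1 library.

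The members, gene lists and comparisons were chosen with earlier results of these data known. Gzma-high cells lie at or above the 75th percentile of Gzma share in lung, Gzma-low cells below the median. Counts were summed per side and divided by the side's total without Gzma, per 1000000 (CPM). The ratio of the sides carries the exact 95% Poisson interval (conditional binomial), and a share of cells the Clopper-Pearson interval after thinning to 1830 counts, the 10th percentile. With 1 library no test or p-value is given, and a call means at least 1.5-fold among genes with at least 20 CPM over lung cells. A ratio is not given for a gene at 0 counts, whose limit is 3 counts over the side. Named genes are the 12 in each direction whose interval bound nearest to equality is farthest from it, expressed at 50 CPM or more and counted in 10% or more of cells on the higher side; ribosomal, mitochondrial, receptor segment, immunoglobulin and predicted genes are left out, and members of the 32 lists and of the markers may also be named. Esm1, Fcgrt and Tmem37 were chosen after their values were seen. Cell cycle markers were summed over 8 genes. Clusters came from 2000 variable genes, 30 components and 15 neighbors, with Leiden resolution 0.6, and doublets from Scrublet at an expected rate of 0.05; doublets were kept. The ratio step was tested on simulated counts. Alternatives cover scaling, filters, thresholds, depth and cell state. Python 3.11.15, scanpy 1.11.5, numpy 2.4.6, pandas 2.3.3 and scipy 1.17.1 were used. Gene positions are those of GENCODE M21 (GRCm38, that is mm10).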

Additional observations from a re-analysis of the deposited data

Results flagged for a closer look

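Ddit3, the stress-induced transcription factor CHOP, differed in opposite directions in the 2 tissues that could be split by Gzma share. In lung it had 31.4 CPM in Gzma-high and 60.7 CPM in Gzma-low cells, a ratio of 0.518 (0.399 to 0.67). In liver it had 48.4 CPM in Gzma-high and 25.1 CPM in Gzma-low cells, a ratio of 1.93 (1.07 to 3.58), which rests on 31 counts in Gzma-high and 20 in Gzma-low cells. At matched depth the ratios were 0.658 in lung and 1.94 in liver, and that of lung was 0.97 when cluster 4 was also left out. With 1 library per tissue the difference was not tested.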

How the results depend on the processing

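No paired analysis was possible because the columns carry no replicate number and each tissue is 1 library. The counts of 172 higher and 429 lower genes became 614 and 1858 with a minimum of 10 counts, which 8992 genes reached, 93 and 155 with a minimum of 50 CPM, which 2228 genes reached, and 36 and 77 at a 2-fold threshold. They became 344 and 688 with the low side below the 25th percentile, 112 and 228 with the high side from the median, 101 and 242 among cells of at least the median depth, and 26 and 109 within depth bins. Size factors gave 259 higher and cluster 0 alone 421 higher genes. Added after seeing the data, depth bins without cycling cells gave 36 and 101, and depth bins without cluster 4 gave 19 and 68. The other 20 counts, among them those without doublets, without cells at 0 Gzma, at equal thinned depth and without cluster 4, stayed within 1.5 times.

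Within depth bins the ratios of Ube2c (0.878), Birc5 (0.813) and Stmn1 (0.916) crossed equality, as they did there without cluster 4 (0.752, 0.714 and 0.824). Within cluster 0 those of Stmn1 (0.545), Bcl2 (2.18), Il7r (1.23) and Hspa9 (1.42) crossed it, and within cluster 1 those of Cks1b (0.904), Stmn1 (0.803) and Cdkn2a (0.791). The median log2 ratio of proliferation genes was -0.19 within depth bins, -0.27 in cluster 1 and -0.29 within depth bins without cluster 4, and that of metallothioneins -0.000335 in the last. The cause was not tested. The other 419 ratios of named genes over the alternatives kept their direction. Of 607 list medians 539 kept their sign; beside the 4 given, 64 changed it in 16 lists, whose reported medians were at most 0.494 in size. No inhibitory receptor or exhaustion gene reached 50 CPM, so that list gave no value at that minimum. Depth limits sparse genes, above all in liver, where 139 Gzma-high cells were measured.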

Other observations

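Some genes outside the lists were past 1.5-fold higher in Gzma-high lung cells at matched depth, and are named because of it. Esm1 and Tmem37 were also past it over all cells, and Fcgrt was not. Within depth bins and without cluster 4 their ratios were 1.54 for Esm1, 1.65 for Tmem37 and 1.35 for Fcgrt, the last no longer past it. Esm1, a secreted proteoglycan known from endothelium, had 110.1 CPM in Gzma-high and 43.4 CPM in Gzma-low cells, 2.53-fold higher (2.06 to 3.13), and 1.71-fold (1.41 to 2.07) at matched depth. Its thinned shares were 15.7% of Gzma-high and 6.81% of Gzma-low cells, while the endothelial marker Pecam1 stood at 8.55 CPM in Gzma-high and 7.96 CPM in Gzma-low cells. Tmem37, a membrane protein, was 1.76-fold higher (53.7 CPM in Gzma-high, 30.5 CPM in Gzma-low cells) and 1.84-fold (1.42 to 2.38) at matched depth. Fcgrt, the neonatal Fc receptor, was 1.36-fold higher over all cells (347 CPM in Gzma-high, 255 CPM in Gzma-low cells) and 1.54-fold (1.4 to 1.68) at matched depth.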
